A study of Mus musculus with 6 samples.

Results

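Cerebellins are small secreted proteins of the C1q family, and this account covers the genes of 4 of them (Cbln1, Cbln2, Cbln3 and Cbln4) together with 3 genes of their synaptic receptors (Grid1, Nrxn2 and Nrxn3). Members were found by their symbol in the platform annotation. All 7 genes had at least 1 probe set, 16 probe sets in all, out of 18193 genes with a symbol of their own and 45037 probe sets other than controls. The family was chosen on the signal of Cbln1, which was higher in one of the sorted populations, so the differences of the members between these populations are given as a description and without a p-value.

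The study measured messenger RNA on microarrays in cells sorted from the ventral mesencephalon of mouse embryos at day 12.5. The first group, called positive here, was 3 arrays of GFP-positive cells of the reporter line Ngn2-GFP on a CD1/129 background, labelled as midbrain dopaminergic progenitors. The second group, called negative here, was 3 arrays of GFP-negative cells of the line Lmx1a-GFP on a C57BL/6 background, labelled as a non-dopaminergic progenitor population. Mouse line, strain and sort gate therefore differed between the groups on every array and cannot be told apart from the cell population. The arrays of a group are separate biological samples per the series' design text. How many embryos went into an array and how the reporter alleles were built is not given in the sources used here. Lmx1a, the floor plate factor whose reporter defined the negative gate, read 146, 170 and 78.7 in positive cells, against 3.74, 9.75 and 1.81 in negative cells, the negative values all being under the filter level of their arrays.

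Cbln1 is released by the axon terminal, where it binds a neurexin in the presynaptic membrane. On the other side of the cleft it binds a delta glutamate receptor, so that ligand and receptors bridge the synapse. This scheme is given for Cbln1 and is not extended here to every cerebellin. The best studied case is the cerebellum, where Cbln1 is released by granule cells onto Purkinje cells. Delta receptors belong to the ionotropic glutamate receptor family by sequence and act mainly as adhesion and signalling proteins. At the embryonic stage sampled here most midbrain neurons have only begun to form, so these are transcript levels before most synapses exist.

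The promoter table of RefSeq (build GRCm38.p6) held windows for Cbln3, Cbln4 and Nrxn3. The 250 bases before the transcription start are printed for Cbln4, a ligand with higher signal in positive cells, for Cbln3, a ligand that stayed under the detection filter, and for 1 of 3 listed starts of Nrxn3, the receptor gene with the most probe sets. That start was picked because its window held the most E-boxes. Capitals mark the letters CANNTG, the E-box core that proneural factors such as Neurog2 bind, searched on both strands. The Cbln4 window is chr2:172043467-172043716 on the minus strand, the Cbln3 window chr14:55884257-55884506 on the minus strand and the Nrxn3 window chr12:89812233-89812482 on the plus strand.
Cbln4: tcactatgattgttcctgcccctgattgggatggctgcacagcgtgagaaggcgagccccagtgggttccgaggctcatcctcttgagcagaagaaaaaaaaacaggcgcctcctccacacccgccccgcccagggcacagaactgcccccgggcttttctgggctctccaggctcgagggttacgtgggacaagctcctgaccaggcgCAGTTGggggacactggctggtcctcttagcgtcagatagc
Cbln3: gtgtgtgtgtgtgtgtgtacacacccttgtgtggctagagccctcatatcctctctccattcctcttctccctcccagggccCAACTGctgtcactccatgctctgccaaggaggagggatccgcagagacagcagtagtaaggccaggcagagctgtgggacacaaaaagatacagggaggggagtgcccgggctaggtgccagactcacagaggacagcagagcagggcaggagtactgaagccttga
Nrxn3: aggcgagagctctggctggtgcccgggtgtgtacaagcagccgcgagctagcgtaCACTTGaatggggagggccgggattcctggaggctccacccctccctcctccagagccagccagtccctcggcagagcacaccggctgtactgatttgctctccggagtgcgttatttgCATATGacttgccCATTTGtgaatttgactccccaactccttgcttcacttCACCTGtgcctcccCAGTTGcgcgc

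The Cbln4 window held 1 E-box, beginning 41 bases before the start, and the Cbln3 window held 1, beginning 168 bases before it. The letters of the Cbln3 E-box, CAACTG, are those of the Cbln4 E-box, CAGTTG, read on the opposite strand. The Nrxn3 window held 5, at 195, 76, 63, 25 and 11 bases before its start, and the windows of the other Nrxn3 starts held 0 and 1. At least 1 E-box was present in 66.2% of all 32851 promoter windows of this length. The Nrxn3 window was picked for its number of E-boxes, so nothing is read from that number. The homeodomain core TAATTA (4.84% of windows) and the Nr4a2-type element AAAGGTCA (1.34% of windows), each searched on both strands, were found in none of the 5 windows of Cbln3, Cbln4 and Nrxn3, which says only that these letters are not in these windows.

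Values are MAS5 signals on a linear scale, as deposited, with every array scaled to the same trimmed mean of 100. A probe set was tested if its signal exceeded the 40th percentile of its array, which lay between 10.2 and 15.8, on at least 3 arrays. Of the 16 member probe sets 12 passed this filter, and they covered 6 of the 7 genes, all except Cbln3. Log2 differences subtract the negative from the positive mean, their standard error (SE) comes from a limma fit across all tested features with n = 3 arrays per group, and a gene is represented by its brightest tested probe set. In bulk samples of this kind fewer cells that make a transcript and less of it per cell cannot be told apart.

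Positive replicates 1 and 2 had lower signals of the hybridization spike-ins (2293 and 2352) than positive replicate 3 (5018) and the negative arrays (4254 to 6560), called the spike-in split here. The 18S rRNA control probe sets were split the same way, at 3713 and 3696 against 7241 to 9276 on the other arrays. A fit that takes this split as a block compares positive replicate 3 alone with the 3 negative arrays, and its SE assumes that this array varies like the others.

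Among the ligands, Cbln1 and Cbln4 were bright in positive cells and dimmer in negative cells, Cbln2 was similar in level on the arrays of both groups with a wide spread, and Cbln3 was at background. Among the receptor genes, Grid1, Nrxn2 and Nrxn3 all had lower mean signals in positive cells, by 1.52-fold to 1.73-fold. By their brightest tested probe sets the ligand genes had positive and the receptor genes negative differences, and that of Cbln2 was about the size of its SE. The 95% interval of Nrxn2 ran from -1.31 to 0.10, and probe set 1432931_at of Nrxn3 had a positive difference (0.22, SE 0.60).

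**Figure D1:**
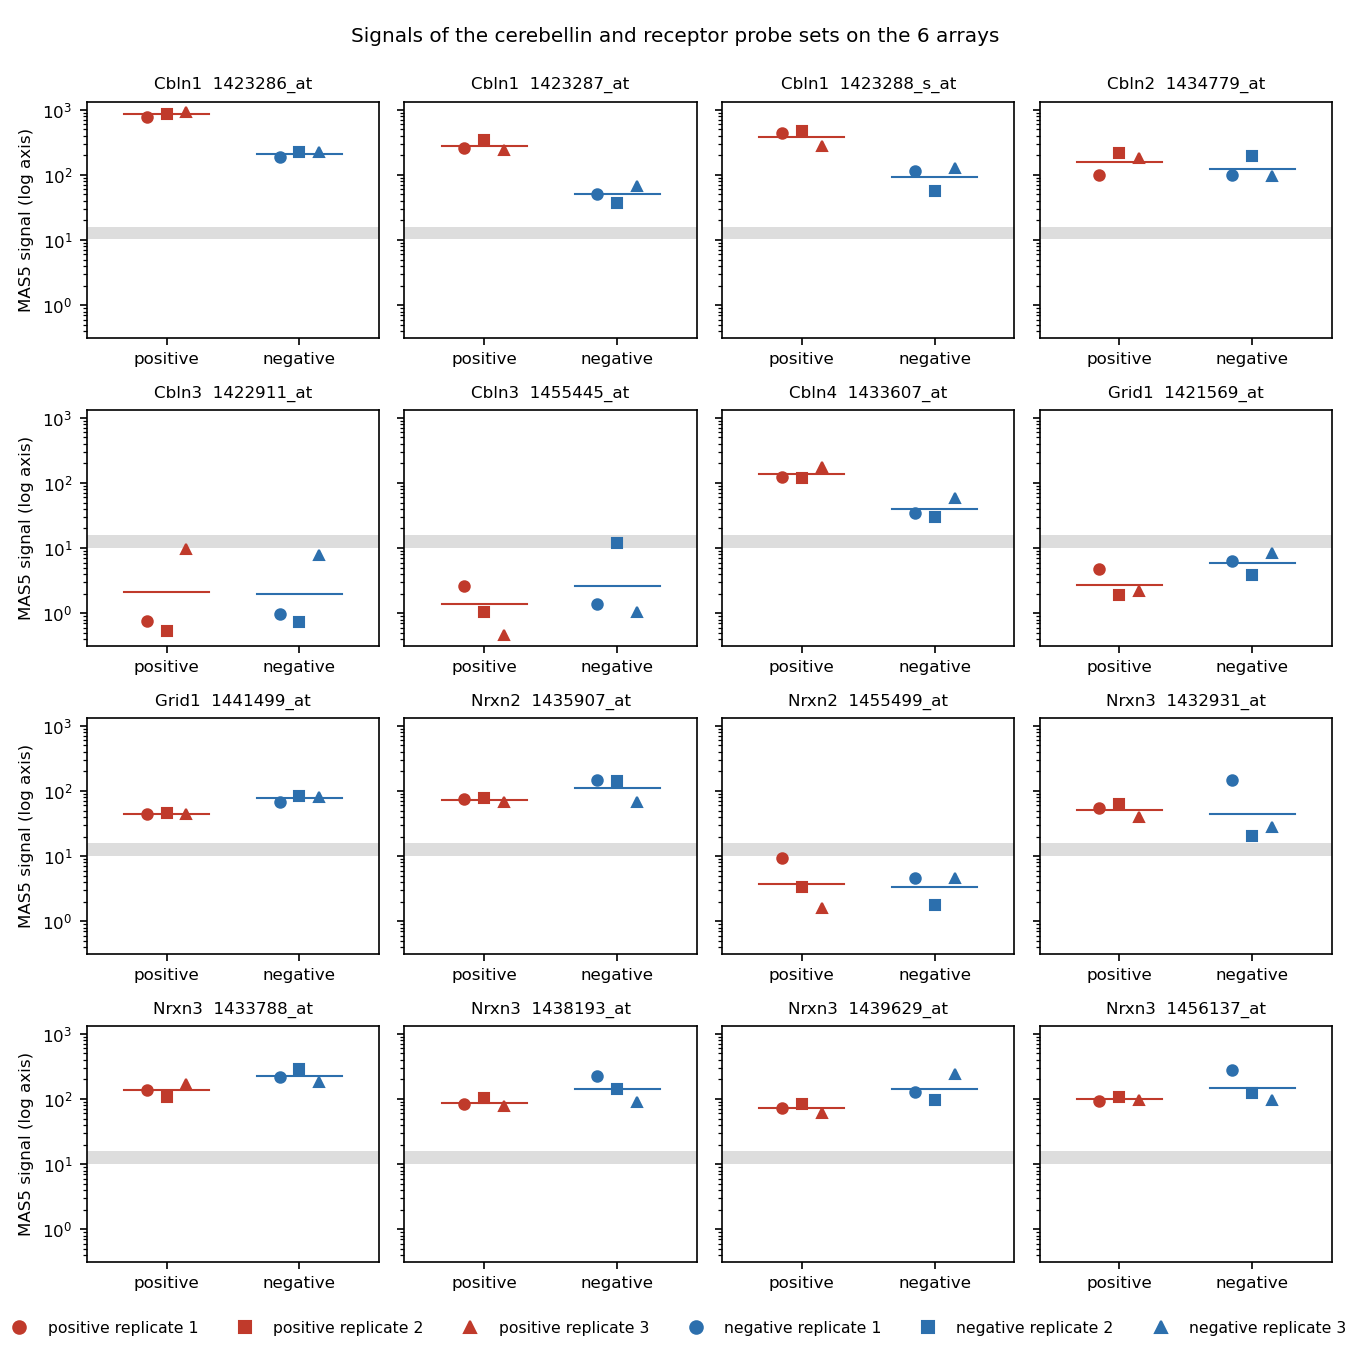
MAS5 signal (log axis) of each of the 16 member probe sets on the 3 positive arrays (red, left) and the 3 negative arrays (blue, right), with marker shapes for replicates 1 to 3, a horizontal line at each group's geometric mean (signals under 1 set to 1) and a grey band for the range of the filter level over arrays, 10.2 to 15.8. The positive points of the 3 Cbln1 probe sets and of Cbln4 all sit above the negative points, and the Cbln3 points sit under the filter level of their arrays.

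Cbln1, the cerebellin that holds parallel fibre synapses together in the cerebellum, was measured by 3 probe sets. The brightest of them, 1423286_at, had signals of 778, 864 and 904 in positive cells, against 185, 222 and 223 in negative cells. The 3 positive values lay close together, the 3 negative values did too, and the gap between the groups was far wider than either spread. The geometric means of 847 in positive and 209 in negative cells differed by 2.02 on the log2 scale (SE 0.20), which is 4.04-fold.

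The other Cbln1 probe sets gave differences of similar size. Probe set 1423287_at read 259, 342 and 242 in positive cells, against 50.6, 36.5 and 67.5 in negative cells, and differed by 2.48 (SE 0.29). Probe set 1423288_s_at, whose suffix marks probes that can match more than 1 transcript, read 436, 466 and 282 in positive cells, against 114, 56.3 and 126 in negative cells, and differed by 2.05 (SE 0.32). The groups did not overlap on any of the 3 probe sets. The order of the arrays within each group was the same on 1423287_at and 1423288_s_at and differed on the brightest probe set. Positive replicate 3 was the highest positive array on the brightest probe set and the lowest on the other 2.

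On the brightest probe set the Cbln1 difference depended little on which arrays were used, and on the other 2 it varied more. Leaving out each array in turn gave log2 differences of 1.93 to 2.08 for the brightest probe set, and the spike-in split as a block gave 2.11 (SE 0.26). For 1423287_at the fits without an array gave 2.25 to 2.69, and the split as a block gave 2.28. For 1423288_s_at they gave 1.69 to 2.28, and the split as a block gave 1.60.

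Cbln4, a cerebellin that binds neurexins and also the netrin receptor Dcc, had 1 probe set. Its signals were 122, 117 and 175 in positive cells, against 34.9, 29.9 and 57.9 in negative cells. All 3 positive arrays were above all 3 negative arrays, and within each group replicate 3 was the highest. The geometric means of 136 in positive and 39.2 in negative cells differed by 1.79 on the log2 scale (SE 0.33), or 3.47-fold. Leaving out 1 array gave 1.60 to 2.07, and the spike-in split as a block gave 2.16 (SE 0.46).

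Cbln2, a cerebellin of forebrain and other circuits, also had 1 probe set. It read 100, 214 and 180 in positive cells, against 101, 197 and 95.9 in negative cells. Each group held values near 100 and values near or above 180, so the groups overlapped almost fully. The difference of 0.34 (SE 0.34) had a 95% interval of -0.41 to 1.08, so neither a moderate fall nor a doubling of signal lies outside it. Without 1 array it lay between 0.11 and 0.67.

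Cbln3, which in the cerebellum is secreted only in complexes with Cbln1, had 2 probe sets and neither exceeded the filter level on any array. Probe set 1422911_at read 0.750, 0.536 and 9.67 in positive cells, against 0.990, 0.729 and 7.80 in negative cells. Probe set 1455445_at read 2.65, 1.05 and 0.463 in positive cells, against 1.39, 11.9 and 1.06 in negative cells. Both were near background in both groups, and no fold is given for them. Replicate 3 of each group was higher on 1422911_at and negative replicate 2 on 1455445_at, which the other probe set did not share.

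Grid1 encodes a delta glutamate receptor, GluD1, that is found at many forebrain and midbrain synapses. Its tested probe set, 1441499_at, read 44.5, 45.6 and 44.3 in positive cells, against 68.2, 84.8 and 79.9 in negative cells. The positive arrays were nearly identical and all lay below the negative arrays. The geometric means of 44.8 in positive and 77.3 in negative cells differed by -0.79 (SE 0.30), or 1.73-fold, and leaving out 1 array gave -0.88 to -0.72. The second Grid1 probe set, 1421569_at, stayed under the filter level on all 6 arrays, at 1.87 to 4.80 in positive and 3.83 to 8.42 in negative cells.

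Nrxn2 encodes a neurexin, a presynaptic adhesion protein with cerebellins, neuroligins and other proteins as ligands. Its tested probe set, 1435907_at, read 75.0, 77.7 and 67.4 in positive cells, against 147, 141 and 67.1 in negative cells. Negative replicates 1 and 2 were about equal and high, whereas negative replicate 3 was at the level of the positive arrays. The log2 difference was -0.61 (SE 0.33). It was -0.97 without negative replicate 3, -0.41 without negative replicate 1 and -0.44 without negative replicate 2. The second probe set of Nrxn2 stayed under the filter level on all arrays, at 1.60 to 9.26 in positive and 1.76 to 4.64 in negative cells.

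Nrxn3, the other neurexin gene, had 5 tested probe sets, more than any other member. The brightest, 1433788_at, read 138, 108 and 170 in positive cells, against 214, 285 and 185 in negative cells, and the groups did not overlap. Its log2 difference was -0.72 (SE 0.26), from geometric means of 136 in positive and 224 in negative cells. With the spike-in split as a block it was -0.40 (SE 0.35). Positive replicate 3, the array on which that fit rests, was the highest positive one. Leaving out 1 array gave -0.88 to -0.54.

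The other Nrxn3 probe sets spread widely over the negative arrays. Probe set 1439629_at read 72.4, 84.2 and 60.3 in positive cells, against 127, 97.0 and 245 in negative cells, again without overlap, and differed by -1.01 (SE 0.34). Probe set 1438193_at read 85.3, 104 and 77.7 in positive cells, against 229, 143 and 89.0 in negative cells (-0.70, SE 0.33). On this probe set negative replicate 3 fell among the positive arrays.

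Probe set 1456137_at read 92.3, 109 and 95.8 in positive cells, against 278, 123 and 97.3 in negative cells (-0.60, SE 0.35). Probe set 1432931_at read 55.1, 62.8 and 39.2 in positive cells, against 149, 20.4 and 28.4 in negative cells (0.22, SE 0.60). On these 2 probe sets the groups overlapped and 1 negative array stood far above the others. Of the 5 probe sets 4 had a negative difference, and the exception had the widest spread.

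The probe sets of Nrxn3 did not rank the negative arrays alike. Negative replicate 1 was the highest array on 1432931_at, 1438193_at and 1456137_at, negative replicate 2 on 1433788_at and negative replicate 3 on 1439629_at. Without negative replicate 1 the log2 difference was 1.10 for 1432931_at, -0.36 for 1438193_at and -0.15 for 1456137_at. The first of these changed sign without negative replicate 2 (-0.34) or 3 (-0.10) and with the spike-in split as a block (-0.17). Without negative replicate 3 the difference of 1439629_at was -0.63. Log2 standard deviations over these 5 probe sets were 0.13 to 0.35 on the positive arrays and 0.32 to 1.54 on the negative arrays.

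**Figure D2:**
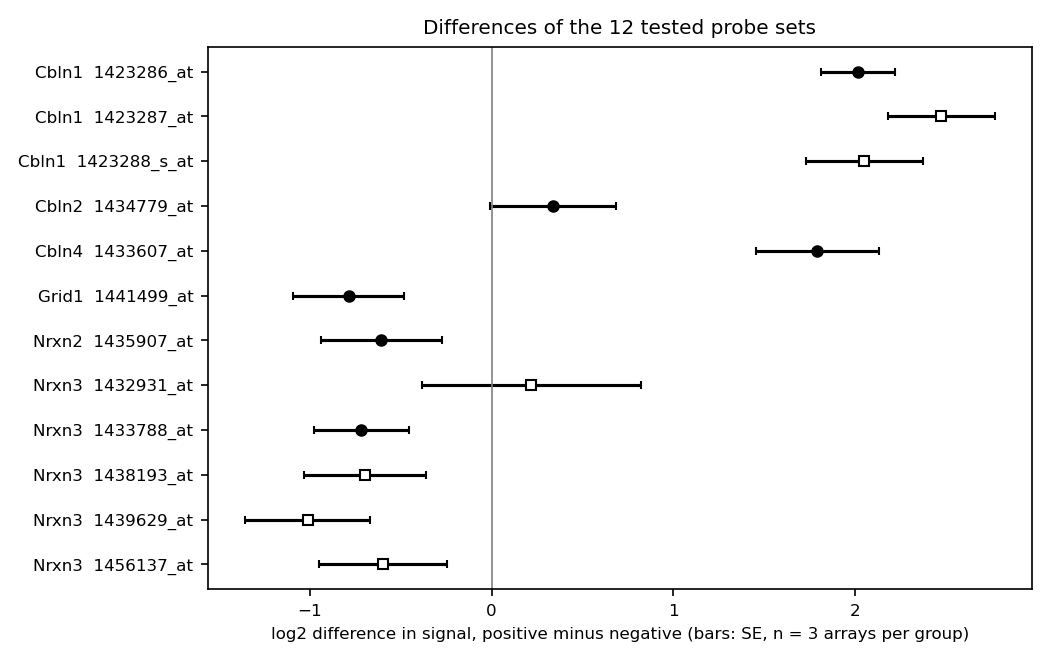
Log2 difference in signal, positive minus negative, for the 12 tested member probe sets, with bars for the SE of the limma fit (n = 3 arrays per group); filled circles are the probe set that represents its gene and open squares the others. The Cbln1 and Cbln4 points lie between 1.79 and 2.48, and the points of Grid1, Nrxn2 and 4 of the 5 Nrxn3 probe sets lie between -1.01 and -0.60.

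Across all 12044 tested genes 1.06% passed an adjusted p of 0.05 in either direction (128 genes), and 2 of the 6 tested members did. These were Cbln1, for which the family was taken up, and Cbln4, both higher in positive cells, so nothing is read from this share. Over probe sets 0.537% of 27738 passed, and 4 of the 12 tested member probe sets did, the 3 of Cbln1 and that of Cbln4. Groups did not overlap for 13.9% of all tested probe sets and for 7 of the 12. Of these, 4 were higher in positive cells (the 3 of Cbln1 and that of Cbln4) and 3 lower (1 of Grid1 and 2 of Nrxn3). The 12 probe sets come from 6 genes and include those of Cbln1, so nothing is read from these shares of probe sets. Over the other settings and the fits without an array the Cbln1 difference lay between 1.86 and 2.18, a description of the gene for which the family was chosen. Cbln4 no longer passed without positive replicate 1 or 2 or negative replicate 1 or 2, with the spike-in split as a block, with no filter or without the mean-variance trend, at log2 differences of 1.60 to 2.16.

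**Figure D3:**
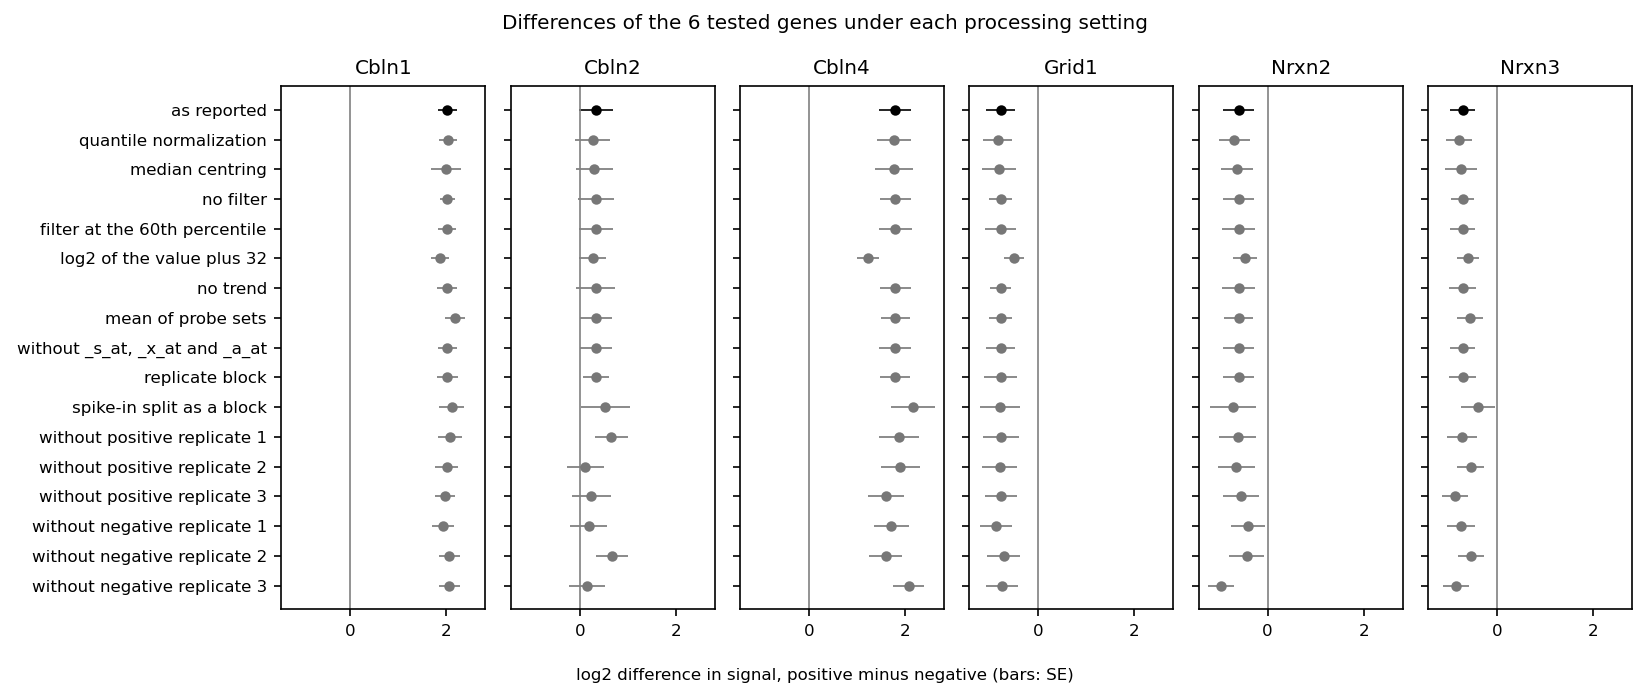
Log2 difference in signal, positive minus negative, of the 6 tested genes under each processing setting (rows), with bars for the SE; the black point is the value as reported. Cbln1 stays between 1.86 and 2.18, Cbln4 between 1.23 and 2.16, and the 3 receptor genes stay below 0 in every row.

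Other genes of the cerebellin and neurexin pathway were grouped into 7 lists of 88 genes, of which 84 had a probe set of their own and 76 were tested. In the limma fit 2 of the 76 were higher in positive cells, against 0.423% of all tested genes, and 0 were lower, against 0.639% of all tested genes. At an unadjusted p under 0.05 there were 10 higher and 2 lower, against 5.68% higher and 5.08% lower among all tested genes. The unadjusted counts of the single lists, given below, are to be read against these shares. The median log2 difference of the 76 was 0.08, beside 0.03 over all tested genes.

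The genes that passed were a glutamate receptor subunit and a synaptic adhesion gene. Gria3, a subunit of AMPA-type glutamate receptors, read 363, 431 and 264 in positive cells, against 143, 150 and 144 in negative cells. Its groups did not overlap and the log2 difference was 1.25 (SE 0.23, limma adjusted p = 0.0197). Ntng1, which encodes netrin-G1, a membrane-anchored adhesion protein of axons, read 222, 245 and 276 in positive cells, against 95.0, 105 and 132 in negative cells. It also had no overlap, with a log2 difference of 1.17 (SE 0.23, limma adjusted p = 0.0301). Neither passed with the spike-in split as a block (Gria3 0.86, limma adjusted p = 0.496; Ntng1 1.34, limma adjusted p = 0.224). Without an array Gria3 passed only when positive replicate 3 was left out (adjusted p = 0.00681) and Ntng1 only when negative replicate 3 was (adjusted p = 0.0381); the other such fits gave 0.0621 to 0.169 for Gria3 and 0.0509 to 0.161 for Ntng1. Both also missed the threshold with median centring (0.0719 for Gria3, 0.166 for Ntng1), no filter (0.105 for Gria3, 0.102 for Ntng1) and no trend (0.149 for Gria3, 0.14 for Ntng1), and Ntng1 with quantile normalization (0.0637) or the mean of its probe sets (0.224).

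The list of other cerebellin receptors gave 0 calls among 2 tested genes and 0 at an unadjusted p under 0.05, and both genes were bright. The netrin receptor Dcc, which Cbln4 also binds, read 1487, 1208 and 1387 in positive cells, against 1569, 1734 and 1155 in negative cells, with a difference of -0.11 (SE 0.22, limma adjusted p = 0.883). Its relative Neo1, or neogenin, differed by -0.17 on its brightest probe set (SE 0.23, adjusted p = 0.814). Its 4 tested probe sets disagreed, with differences of -0.17 to 1.13, whereas the 3 of Dcc lay between -0.11 and 0.15.

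Among C1q-like relatives, 2 of 5 listed genes were tested and 0 passed, with 0 at an unadjusted p under 0.05. C1ql1, a secreted protein that acts at climbing fibre synapses in the cerebellum, differed by 0.42 (SE 0.33, limma adjusted p = 0.672), and Adgrb3, the adhesion receptor of C1q-like proteins, by 0.02 (SE 0.28, adjusted p = 0.989). C1ql2 and C1ql3 stayed under the filter.

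Other ligands of neurexins gave 0 calls among 15 tested genes, 9 with positive and 6 with negative differences and a median of 0.08, while 2 were higher and 0 lower at an unadjusted p under 0.05. The brightest were Nlgn2, the neuroligin of inhibitory synapses, at 0.50 (SE 0.27, limma adjusted p = 0.516), and Adgrl1, a latrophilin, at 0.85 (SE 0.26, adjusted p = 0.216). Nxph3, a secreted neurexophilin that binds neurexins, read 31.0, 18.3 and 19.1 in positive cells, against 1.40, 6.54 and 5.97 in negative cells. It was under the filter level on all 3 negative arrays, so its difference is given as at least 1.71-fold, the positive mean over the mean of the higher of signal and filter level on each negative array, and it did not pass (adjusted p = 0.274). The 2 genes higher at an unadjusted p under 0.05, and the 10 over all lists, include Nxph3 by its fitted value, which is no measured size.

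Intracellular partners of neurexins and delta receptors gave 0 calls among 12 tested genes and had a median difference of 0.39, with 8 positive and 4 negative values, and 1 gene higher and 0 lower at an unadjusted p under 0.05. Lin7c, a PDZ scaffold that joins Cask, differed by -0.42 (SE 0.22, limma adjusted p = 0.505), and Cask, the kinase-like scaffold that binds the neurexin tail, by 0.48 (SE 0.24, adjusted p = 0.49). The 4 tested probe sets of Cask lay between -0.17 and 0.48. Of the STAR-family splicing regulators of neurexins, 3 were tested and 0 passed, with 0 at an unadjusted p under 0.05. Khdrbs1 differed by -0.40 (SE 0.24, adjusted p = 0.563) and Khdrbs3 by -0.12 (SE 0.32, adjusted p = 0.919). The 6 tested probe sets of Khdrbs1 ran from -0.63 to 0.41.

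Gria3 was the 1 call among 12 tested ionotropic glutamate receptor genes, whose median difference was 0.04, with 2 higher and 1 lower at an unadjusted p under 0.05. Ntng1 was the 1 call among 30 tested genes of other synaptic organizers, whose median was 0.15, with 18 positive and 12 negative values and with 5 higher and 1 lower at an unadjusted p under 0.05.

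**Figure D4:**
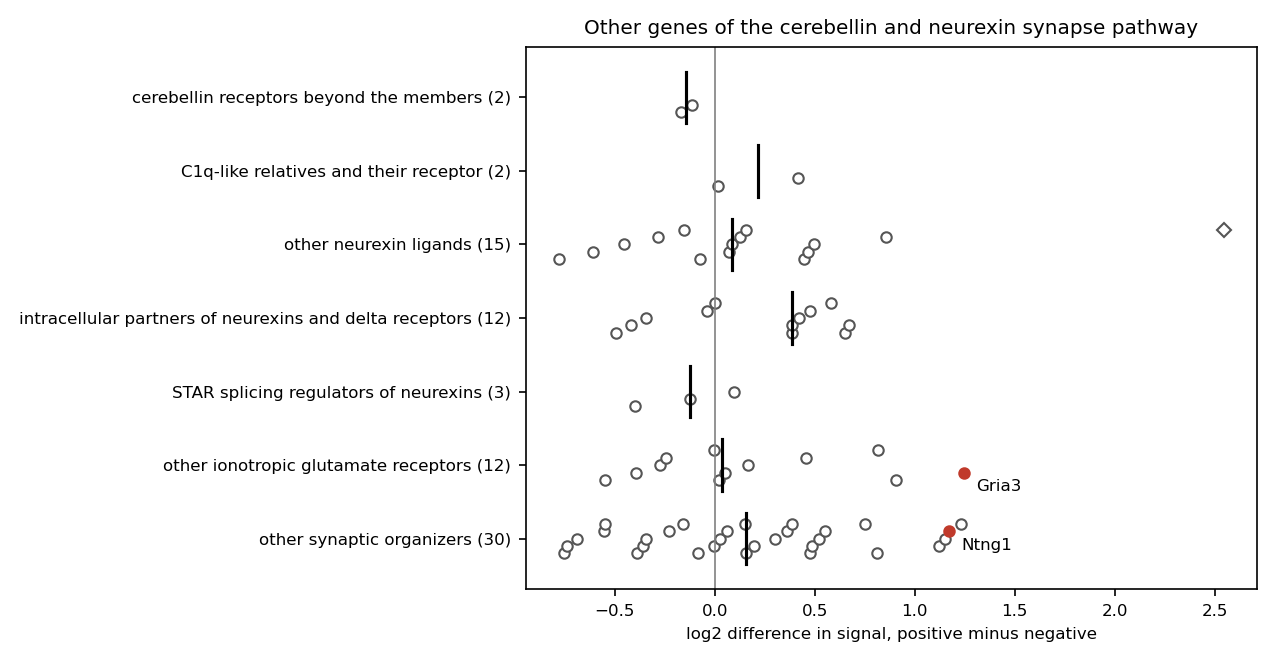
Log2 difference in signal, positive minus negative, of the 76 tested genes in the 7 pathway lists (rows, number tested in brackets); filled red points passed the threshold, the diamond is Nxph3, which was under the filter level on all 3 negative arrays and for which the fitted value is no measured size, and vertical bars are list medians. The medians lie between -0.14 and 0.39, and Gria3 and Ntng1 are the filled points.

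The genes whose profile over the 6 arrays lay nearest to that of Cbln1 were found by the root mean square difference of log2 signals after each gene's mean was subtracted, over all tested genes. The nearest was Klf4, a zinc finger transcription factor, at a distance of 0.17 log2 units. The cell adhesion gene Alcam (0.22), C130021I20Rik (0.23) and Pdzrn3, a PDZ-domain ubiquitin ligase (0.24), were also among the 5 nearest. The other was Ret, the receptor tyrosine kinase of GDNF-family ligands, for which no distance or place in the order is given, since its negative signals were under the filter level. Klf4 read 78.6, 96.6 and 93.0 in positive cells, against 17.7, 26.3 and 30.3 in negative cells. Ret read 50.7, 47.5 and 44.9 in positive cells, against 9.64, 10.1 and 9.79 in negative cells, a difference given only as at least 3.68-fold. The distances rest on 6 arrays in 2 groups, and all 5 genes had a higher signal on each positive array than on any negative one, as Cbln1 did.

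Markers of cell types differed between the sorted populations beside the members. Of 10 listed genes of dopaminergic neurons and progenitors, 9 were above the filter level on all positive arrays and 6 on all negative arrays, with summed signals of 4439 to 5826 in positive and 1784 to 2076 in negative cells, and Pitx3 was under the filter level on every array. All 7 listed genes of midbrain GABAergic neurons were above it on all arrays, with sums of 2442 to 2666 in positive and 5739 to 6023 in negative cells. Sums of 5 erythroid genes were 294 to 611 in positive and 7375 to 14435 in negative cells, but Hbb-y made up most of them. Of these 5 genes 4 passed the threshold as lower in positive cells, and Hba-a1 was under the filter level on every array. Sums of 7 macrophage genes were 20.7 to 38.5 in positive and 366 to 761 in negative cells, and 0 of them were above the filter level on all 3 positive arrays and 5 on all 3 negative arrays. The part of these differences in the signals of the cerebellin and receptor genes was not tested.

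Sums of 7 radial glia genes were 4237 to 6630 in positive and 7920 to 9515 in negative cells, but Fabp7 and Vim made up most of them. Of these genes 2 passed the threshold, both lower in positive cells, Fabp7 (log2 difference -1.18) and Pax6 (-2.22). The others did not pass, at -0.88 to -0.01. Sums of 8 general neuronal genes were 11116 to 17014 in positive and 14873 to 18697 in negative cells. Genes of the rhombic lip and of granule cells, the cerebellar cells best known for Cbln1, formed another list. Its sums were 321 to 392 in positive and 276 to 350 in negative cells, but Neurod1 made up most of them. Neurod1 read 307, 244 and 317 in positive cells, against 201, 206 and 232 in negative cells. Of the 6 genes in this list 3 were above the filter level on all positive arrays and 2 on all negative arrays. Barhl1 read 16.7, 21.6 and 19.6 in positive cells, against 44.2, 32.2 and 23.0 in negative cells, above the filter level throughout. Zic2 read 22.8, 29.7 and 13.3 in positive cells, against 2.76, 10.5 and 5.36 in negative cells. It was above the filter level on 3 positive and 0 negative arrays. Zic1 was above it on 1 positive and 2 negative arrays, and Atoh1 and Gabra6 on 0 positive arrays and 1 negative array each. Sums of 6 endothelial genes (41.7 to 52.8 in positive, 19.6 to 37.3 in negative cells) and of 6 mesenchymal genes (60.9 to 106 in positive, 78.2 to 99.8 in negative cells) were low in both populations. Sums of 7 glutamatergic and motor neuron genes overlapped (2679 to 4013 in positive, 2803 to 3426 in negative cells), but Pou4f1 made up most of them. Within that list Slc17a6, the vesicular glutamate transporter, was higher in positive cells by 1.11 (SE 0.24, limma adjusted p = 0.0475), and Isl1, a motor neuron factor, differed by -2.22 (SE 0.35, limma adjusted p = 0.00765).

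**Figure D5:**
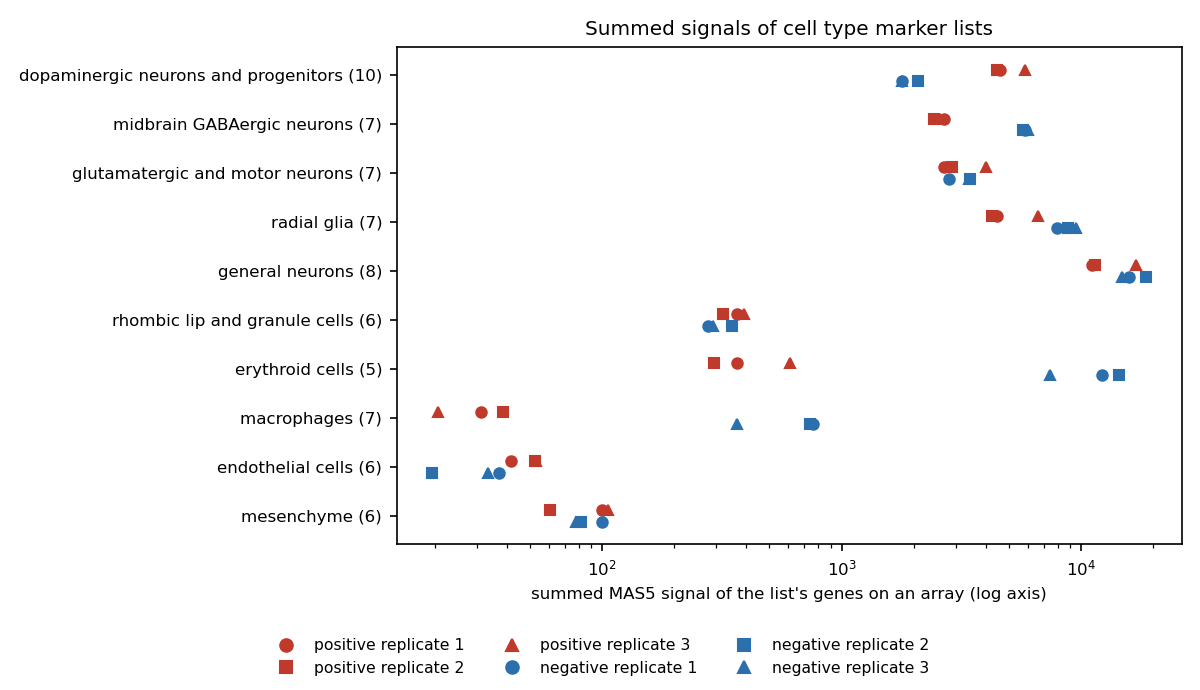
Summed MAS5 signal (log axis) of the genes in each of 10 cell type marker lists (rows, number of genes with a probe set in brackets) on the 3 positive arrays (red, upper points of a row) and the 3 negative arrays (blue, lower points). The dopaminergic sums are higher on positive arrays, at 4439 to 5826 against 1784 to 2076, and the GABAergic, radial glia, erythroid and macrophage sums are lower there.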

How the data were processed

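RNA of sorted cells was biotin-labelled and measured on 1 array per sample. The intensity values deposited by the authors are MAS5 signals. Per the submitters' processing notes R 2.14.2, MAS5 and limma were used, with no role or order stated; no version of the other tools is given. Each array was scaled to the same trimmed mean, so totals of RNA are not compared and low signals are noisy on a log scale. Median signals were 18.2 to 25.5.

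Values below 1 were raised to 1 before log2 was taken. Of 45037 probe sets 34945 had 1 gene symbol, 932 several and 9160 none. Genes were fitted with limma 3.58.1 in R 4.3.3 (lmFit, eBayes with trend, two-sided, Benjamini-Hochberg over 12044 tested genes, threshold 0.05), and probe sets likewise over 27738. The fit was tested on simulated data. Alternatives were other scalings, filters, pseudocounts and probe set rules, no trend, replicate and spike-in blocks (a split at the widest gap in spike-in signal, which no label calls a batch), and leaving out each array. Named genes were all members, of each pathway list the genes past the threshold or else the 2 brightest, the 5 genes nearest to Cbln1, and marker genes where their list is described. Nxph3, C1ql2, C1ql3 and, as a check of the sort, Lmx1a were named beyond this rule after their values were seen. Some listed genes are not reported here. Members, lists and motifs were chosen with earlier results of these data known. Figures were drawn with matplotlib 3.10.9.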

Additional observations from a re-analysis of the deposited data

How the results depend on the processing

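Cbln1, Cbln4, Gria3 and Ntng1 kept their direction in every fit run. The count of 128 genes became 19 with no filter, 42 without the mean-variance trend and 34 when the spike-in split was a block, and 58 to 419 when 1 array was left out (419 without positive replicate 3, which leaves only positive arrays of low spike-in signal; 78, 58, 85, 80 and 83 without positive replicates 1 and 2 and negative replicates 1, 2 and 3). The count of 2 pathway genes became 1 with quantile normalization, 0 with median centring, no filter, no trend or the spike-in split as block, and 0 to 3 when 1 array was left out; the cause was not tested. On the scale of log2 of the value plus 32, which shrinks dim signals by construction, Cbln1 differed by 1.86, Cbln4 by 1.23 and Grid1 by -0.51; the mean of its 3 probe sets gave 2.18 for Cbln1. With the replicate number as a block 127 genes and the same count of 2 pathway genes passed, and Cbln1 kept its difference of 2.02 (SE 0.22). Deviations of same-numbered arrays correlated at 0.14, -0.10 and 0.03 for numbers 1 to 3, so the numbers were not taken as pairs. The number of arrays limits the precision of every value, and for Cbln3 signals near background leave no usable difference.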
